A study of Mus musculus with 9 samples.

Results

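The 10 genes described here mark the less contractile, matrix-making and injury-responding state of vascular smooth muscle, and were followed in the mouse aorta. They are Spp1, Lgals3, Vcam1, Thbs1, Mgp, Bgn, Mmp2, Tnfrsf11b, Klf4 and Sox9. They were chosen by name and role, with no measured value in the rule, but with earlier results of these data known. They are 10 of the 55453 genes in the count table. Whole aortae of C57BL/6J mice gave the RNA, in 3 groups of 3 mice each, labelled Itga8-Cre, Myh11-Cre and Wild Type. The study made a mouse line, Itga8-CreERT2, whose Cre recombinase works after tamoxifen, and set it beside the Myh11-CreERT2 line that is in wide use. The lines take their names from Itga8, an integrin subunit of smooth muscle, and Myh11, the smooth muscle myosin heavy chain, and the Wild Type label names no Cre. Sex, age, tamoxifen treatment, Cre copy number and extraction batch are not in the labels, so an effect of any of these and an effect of genotype cannot be told apart. Libraries held 31419238 to 42497543 counts.

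Smooth muscle cells of a healthy artery are contractile, and in injury, atherosclerosis and calcification they can lose contractile protein and take on properties of fibroblasts, macrophages or cartilage and bone cells, a change called phenotypic modulation. Secreted matrix proteins, adhesion molecules and the transcription factors Klf4 and Sox9 are among the genes known to mark or drive it. Most of the 10 genes are also made by other cells of the vessel wall. In RNA from a whole aorta a level therefore sums smooth muscle, macrophages, adventitial fibroblasts, endothelium and any other tissue carried with it. In such bulk samples fewer cells of a type and less RNA per cell cannot be told apart.

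Spp1 and Lgals3 varied most between libraries, and their promoters are shown because these genes were high in some of the same libraries. Promoter sequence in the RefSeq table (build GRCm38.p6, 250 bases before to 50 bases after the start site) matched 4 of the 10 genes by symbol (Spp1, Lgals3, Klf4 and Bgn). Capitals mark every match, on either strand, to the motifs searched, which were TGANTCA (AP-1), GAGGAAGT (ETS), CACCC (Krüppel-like factors), the CArG box, TATAAA and GGGCGG (GC box).
Spp1, chr5:104434861-104435160, plus strand: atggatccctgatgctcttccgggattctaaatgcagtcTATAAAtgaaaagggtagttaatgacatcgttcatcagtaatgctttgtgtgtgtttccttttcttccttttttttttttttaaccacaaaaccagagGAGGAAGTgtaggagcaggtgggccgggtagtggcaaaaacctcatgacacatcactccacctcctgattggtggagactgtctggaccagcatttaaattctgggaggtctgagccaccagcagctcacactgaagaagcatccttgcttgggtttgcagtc
Lgals3, chr14:47373610-47373909, plus strand: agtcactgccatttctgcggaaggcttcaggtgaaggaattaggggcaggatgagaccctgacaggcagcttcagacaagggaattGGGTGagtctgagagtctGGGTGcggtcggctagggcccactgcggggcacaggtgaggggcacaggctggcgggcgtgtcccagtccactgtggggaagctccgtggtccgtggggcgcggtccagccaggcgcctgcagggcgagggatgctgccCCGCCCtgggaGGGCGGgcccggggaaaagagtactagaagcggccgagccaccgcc
The table holds another Spp1 promoter (chr5:104435942-104436241), not printed, with 36.7% G or C and no match to any motif searched. In the Spp1 promoter shown TATAAA began 211 bases and GAGGAAGT 113 bases before the start site, and 45.3% of its bases were G or C. The Lgals3 window lies inside the gene model given below, which starts upstream of it at 47367751. This Lgals3 promoter held the reverse complement of CACCC at 164 and 146 bases before its start site. It had GC boxes beside that start and a G or C content of 67%. Of 32851 promoters of the same length, 3.202% held GAGGAAGT, 13.62% TATAAA, 57.52% CACCC and 35.66% GGGCGG. AP-1 (in 7.808% of promoters) and the CArG box (in 1.629%) had no match in these windows. The matches overlap no other motif searched in either window and are descriptions of the sequence, not sites shown to be used.

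All 10 genes passed the filter on low counts that kept 19412 genes. Levels below are CPM, the counts scaled to a common library size with TMM factors. Differences between groups are log2 fold changes from edgeR's quasi-likelihood fit to all 9 libraries, given with the standard error (SE) and with p-values adjusted by Benjamini-Hochberg over all 19412 genes. Groups are called separate when every library of one lies above every library of the other.

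Per kilobase of exon the genes spanned a wide range of abundance. Mgp was the most abundant at 92.9 RPKM (the CPM divided by the kilobases of exon) on average over the 9 libraries, followed by Bgn at 40.3, Mmp2 at 15.9, Lgals3 at 11.3 and Klf4 at 8.89 RPKM. Spp1 averaged 8.60, Thbs1 7.30 and Vcam1 5.10 RPKM. Tnfrsf11b at 0.858 and Sox9 at 0.553 RPKM were the least abundant, with 34 to 148 and 43 to 138 counts per library. Mgp exceeded Bgn, and Bgn exceeded Mmp2, in all 9 libraries. Neighbours in this order had overlapping RPKM ranges over the 9 libraries, except that Vcam1 in its lowest library lay above Tnfrsf11b in its highest. The order was not the same in every group: by group mean Spp1 had 15.9 ± 13.1 RPKM in Itga8-Cre, 7.66 ± 11.5 RPKM in Myh11-Cre and 2.23 ± 1.45 RPKM in Wild Type aortae (SD, n = 3 each).

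**Figure D1:**
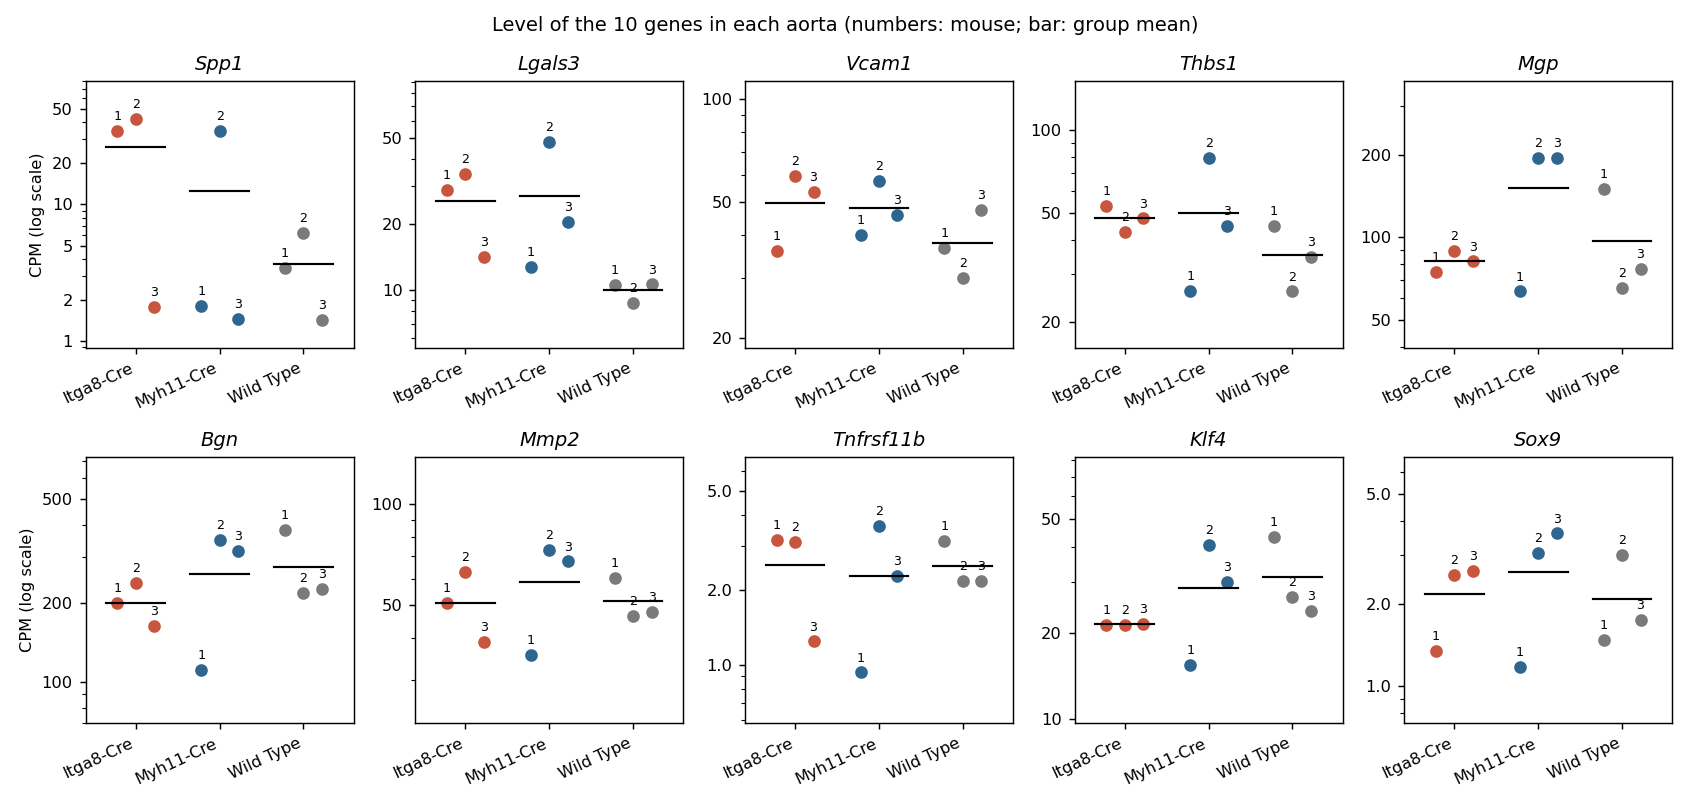
CPM of each of the 10 genes (log scale on the vertical axis) in the 3 aortae of each group; each point is 1 mouse, numbered by its label, and the bar is the group mean. Spp1 was at 34.7 and 42.3 CPM in Itga8-Cre 1 and 2 and at 34.6 CPM in Myh11-Cre 2, and at 6.19 CPM or less in the other 6 libraries; Lgals3 in every Cre library lay above the 3 Wild Type libraries.

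No gene of the genome passed an adjusted p of 0.05 in edgeR in any of the 3 comparisons, so none of the 10 did, against 0% called among all genes tested. The smallest adjusted p over all genes was 0.494 for Itga8-Cre against Wild Type, 0.218 for Myh11-Cre against Wild Type and 0.521 for Itga8-Cre against Myh11-Cre. At an unadjusted p under 0.05 edgeR gave 1316 genes for Itga8-Cre against Wild Type, 3187 for Myh11-Cre against Wild Type and 1840 for Itga8-Cre against Myh11-Cre. DESeq2 called 30 genes in the first of these, 828 in the next and 19 in the last, and limma voom called 0 in each, with 1185, 2903 and 1817 at an unadjusted p under 0.05. Among the 10 genes, edgeR gave an unadjusted p under 0.05 to Lgals3 alone, in both Cre lines against Wild Type and not between the Cre lines. That is 1 of 10 genes in Itga8-Cre, where 6.78% of all genes reached it, and 1 of 10 in Myh11-Cre, where 16.4% did. Both shares lie near their backgrounds. Between Itga8-Cre and Myh11-Cre it was 0 of 10, against 9.48% of all genes.

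The median log2 fold change of the 10 genes was 0.04 for Itga8-Cre against Wild Type, where 6 were positive and 4 negative, and the median of all genes was 0.04. For Myh11-Cre against Wild Type it was 0.33, with 7 positive and 3 negative, and 0.01 over all genes. For Itga8-Cre against Myh11-Cre it was -0.14, with 3 positive and 7 negative, and 0.01 over all genes. Both comparisons with Wild Type share the 3 Wild Type libraries.

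**Figure D2:**
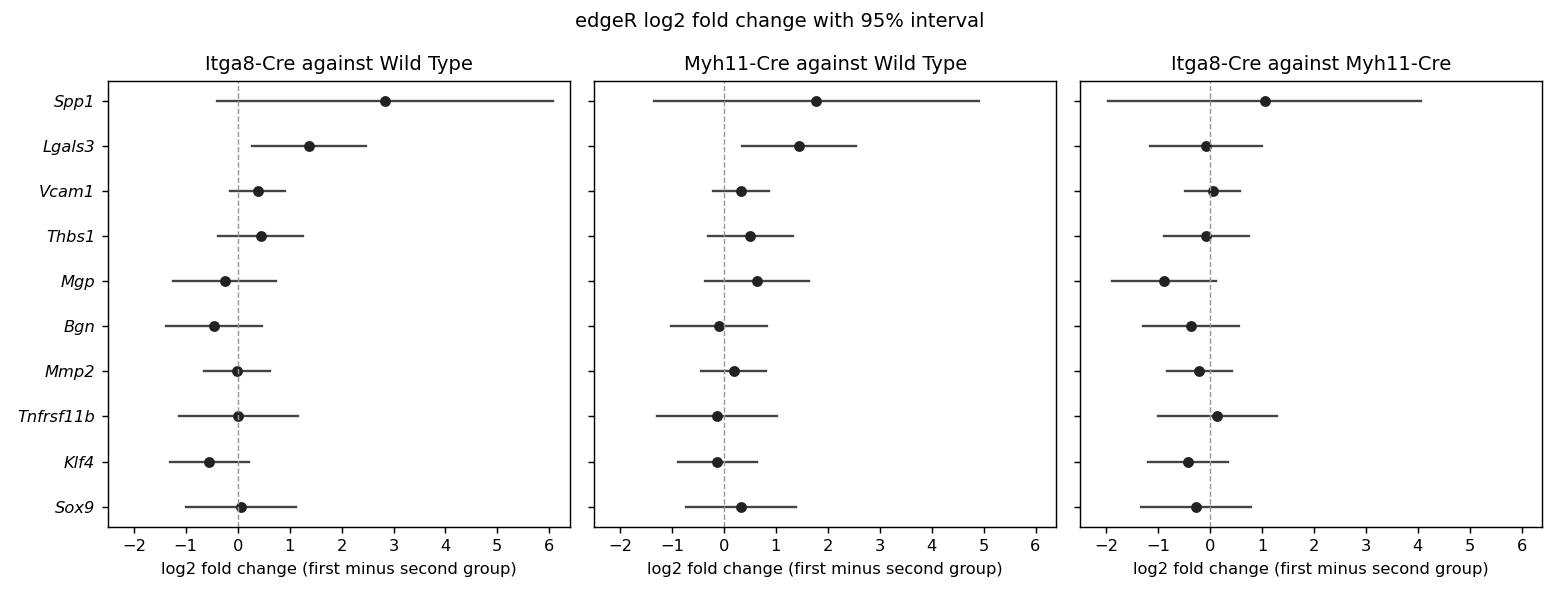
Log2 fold change of each gene (points) with its 95% interval (lines) from edgeR in the 3 comparisons; positive values mean higher in the first group named. The intervals of Lgals3 lie above 0 in both Cre lines against Wild Type, from 0.27 to 2.47 in Itga8-Cre and from 0.35 to 2.54 in Myh11-Cre, and the other intervals all include 0.

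Lgals3 encodes galectin-3, a galactoside-binding lectin abundant in macrophages and switched on in modulated smooth muscle cells of plaques. The gene is on chromosome 14 (GRCm38, 47367751 to 47386160, plus strand). Lgals3 had 28.7, 34.2 and 14.2 CPM in Itga8-Cre aortae, 12.8, 48.0 and 20.5 in Myh11-Cre aortae, and 10.5, 8.70 and 10.6 in Wild Type aortae. Every Cre library lay above every Wild Type library, while the Cre lines overlapped each other. The lowest of the 6 Cre values, 12.8 CPM in Myh11-Cre 1, was close to the Wild Type values, and the Wild Type aortae differed little from each other. Group means were 25.7 ± 10.3 CPM in Itga8-Cre aortae and 27.1 ± 18.5 CPM in Myh11-Cre aortae, against 9.95 ± 1.08 CPM in Wild Type (SD, n = 3 each), which is 2.58 and 2.72 times the Wild Type mean.

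In edgeR the log2 fold change of Lgals3 was 1.37 (SE 0.48) for Itga8-Cre against Wild Type, with an unadjusted p of 0.0203 and an adjusted p of 0.699. For Myh11-Cre against Wild Type it was 1.45 (SE 0.48), with an unadjusted p of 0.0158 and an adjusted p of 0.235. DESeq2 called Lgals3 in Myh11-Cre, with an adjusted p of 0.0399, in a comparison where it called 1.35% of all genes as higher. In Itga8-Cre DESeq2's adjusted p was 0.335, where it called 0.0222% of genes as higher. With voom the unadjusted p was 0.0412 in Itga8-Cre and 0.0458 in Myh11-Cre. The Myh11-Cre value rests in large part on 1 library: without Myh11-Cre 2 the log2 fold change was 0.75. Between the Cre lines the log2 fold change was -0.08 (SE 0.47), with a 95% interval from -1.15 to 0.99.

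Spp1 encodes osteopontin, a secreted phosphoprotein that binds integrins and Cd44 and is made by macrophages and modulated smooth muscle. Its locus is on chromosome 5 (104435118 to 104441050, plus strand), where a tentative gene model, Gm42793, overlaps it on the same strand, so reads of both may be shared. Spp1 had 34.7, 42.3 and 1.77 CPM in Itga8-Cre aortae, 1.81, 34.6 and 1.46 in Myh11-Cre aortae, and 3.42, 6.19 and 1.43 in Wild Type aortae. In counts these were 1212, 1529 and 60 in Itga8-Cre, 66, 1423 and 56 in Myh11-Cre, and 118, 234 and 55 in Wild Type. Itga8-Cre 1, Itga8-Cre 2 and Myh11-Cre 2 stood far above the other 6 libraries. Itga8-Cre 3, Myh11-Cre 1 and Myh11-Cre 3 lay within the Wild Type range, so the groups overlapped.

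The highest Spp1 level was 29.5 times the lowest. The SD of its log2 CPM over the 9 libraries was 2.10, at percentile 99.3 of all genes tested, where the median gene had 0.31. Group means were 26.2 ± 21.5 CPM in Itga8-Cre aortae, 12.6 ± 19.0 in Myh11-Cre aortae and 3.68 ± 2.39 in Wild Type aortae (SD, n = 3 each). The fitted log2 fold change against Wild Type was 2.83 (SE 1.42) in Itga8-Cre, with an adjusted p of 0.699 in edgeR. In Myh11-Cre it was 1.78 (SE 1.37), with an adjusted p of 0.525, and it was -1.17 without Myh11-Cre 2. Neither difference passed the test against the spread within the groups.

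Vcam1 encodes vascular cell adhesion molecule 1, which binds the integrin that holds Itga4 on leukocytes and is made by activated endothelium and modulated smooth muscle. On chromosome 3 it spans 116109949 to 116129688 (minus strand), with an antisense gene, Gm43109, on the opposite strand. Vcam1 had 36.1, 59.5 and 53.6 CPM in Itga8-Cre aortae, 40.2, 57.8 and 45.9 in Myh11-Cre aortae, and 36.7, 30.1 and 47.5 in Wild Type aortae. The groups overlapped, and Vcam1 was the steadiest of the 10 genes, with a highest level 1.98 times its lowest. The log2 fold change was 0.38 (SE 0.23) in Itga8-Cre and 0.33 (SE 0.23) in Myh11-Cre against Wild Type, with adjusted p of 0.707 and 0.486 in edgeR. Between Itga8-Cre and Myh11-Cre it was 0.05 (95% interval -0.48 to 0.58).

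Thbs1 encodes thrombospondin-1, a matricellular protein that binds Cd36 and Cd47 and can activate latent TGF-beta. Thbs1 is on chromosome 2 (118111876 to 118127133, plus strand), with the noncoding gene Gm29233 on the opposite strand. Thbs1 had 52.9, 42.6 and 47.7 CPM in Itga8-Cre aortae, 26.1, 79.3 and 44.8 in Myh11-Cre aortae, and 44.8, 25.9 and 34.7 in Wild Type aortae. The groups overlapped, since Itga8-Cre 2 lay below Wild Type 1. Myh11-Cre spanned the Itga8-Cre range and overlapped Wild Type, whose lowest library was slightly lower. Against Wild Type, the log2 fold change was 0.44 (SE 0.36) in Itga8-Cre and 0.51 (SE 0.36) in Myh11-Cre, with adjusted p of 0.752 and 0.489 in edgeR. Without Myh11-Cre 2 the value in Myh11-Cre was 0.02.

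Mgp encodes matrix Gla protein, an inhibitor of arterial calcification that binds bone morphogenetic proteins and needs vitamin K-dependent carboxylation. Mgp sits on chromosome 6 (136872435 to 136875823, minus strand). Mgp had 74.9, 89.2 and 81.8 CPM in Itga8-Cre aortae, 63.5, 195 and 195 in Myh11-Cre aortae, and 150, 65.5 and 76.7 in Wild Type aortae. Itga8-Cre aortae were close to each other, while Myh11-Cre 2, Myh11-Cre 3 and Wild Type 1 stood above the rest. The log2 fold change was -0.25 (SE 0.44) in Itga8-Cre and 0.64 (SE 0.44) in Myh11-Cre against Wild Type, with adjusted p of 0.885 and 0.477 in edgeR. Between Itga8-Cre and Myh11-Cre it was -0.89 (SE 0.44), with an unadjusted p of 0.0763 and an adjusted p of 0.548.

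Bgn encodes biglycan, a small leucine-rich proteoglycan of the arterial wall that binds lipoproteins and TGF-beta. Its gene is on chromosome X (73483602 to 73495933, plus strand). Bgn had 201, 239 and 164 CPM in Itga8-Cre aortae, 112, 350 and 317 in Myh11-Cre aortae, and 382, 220 and 227 in Wild Type aortae. Its lowest value was in Myh11-Cre 1 and its highest in Wild Type 1, and Itga8-Cre 2 lay above 2 of the 3 Wild Type libraries. In edgeR the log2 fold change was -0.46 (SE 0.41) in Itga8-Cre and -0.09 (SE 0.41) in Myh11-Cre against Wild Type, with adjusted p of 0.769 and 0.921 in edgeR.

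Mmp2 encodes gelatinase A, which cleaves basement membrane collagen and is activated at the cell surface by Mmp14. Mmp2 sits on chromosome 8 (92827291 to 92853420, plus strand). Mmp2 ran from 38.8 to 62.9 CPM in Itga8-Cre, from 35.5 to 73.0 CPM in Myh11-Cre and from 46.4 to 60.3 CPM in Wild Type aortae, so the Wild Type range lay inside both Cre ranges. Its log2 fold change was -0.02 (SE 0.28) in Itga8-Cre and 0.19 (SE 0.28) in Myh11-Cre, and the 95% intervals ran from -0.65 to 0.61 and from -0.44 to 0.82.

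Tnfrsf11b encodes osteoprotegerin, the soluble decoy receptor for the cytokine RANKL (Tnfsf11), whose loss in mice leads to arterial calcification. The gene is on chromosome 15 (54250619 to 54278484, minus strand). Tnfrsf11b had 3.17, 3.10 and 1.24 CPM in Itga8-Cre aortae, 0.93, 3.60 and 2.27 in Myh11-Cre aortae, and 3.13, 2.17 and 2.16 in Wild Type aortae. Its low values in Itga8-Cre 3 and Myh11-Cre 1 rested on 42 and 34 counts. The log2 fold change was 0.01 (95% interval -1.14 to 1.16) in Itga8-Cre and -0.13 (95% interval -1.28 to 1.02) in Myh11-Cre against Wild Type.

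Klf4 encodes a zinc finger transcription factor that represses contractile genes in cultured smooth muscle cells and is needed for much of their modulation in mouse plaques. Klf4 is on chromosome 4 (55527143 to 55532466, minus strand). Klf4 had 21.3, 21.3 and 21.5 CPM in Itga8-Cre aortae, 15.5, 40.5 and 30.1 in Myh11-Cre aortae, and 43.3, 26.6 and 23.8 in Wild Type aortae. The Itga8-Cre and Wild Type aortae were separate, Itga8-Cre being lower, and Myh11-Cre overlapped both. Group means were 21.4 ± 0.136 CPM in Itga8-Cre aortae, 28.7 ± 12.6 in Myh11-Cre aortae and 31.3 ± 10.6 in Wild Type aortae (SD, n = 3 each). Its log2 fold change was -0.55 (SE 0.34) in Itga8-Cre against Wild Type, with an unadjusted p of 0.139 and an adjusted p of 0.707 in edgeR, and -0.12 (SE 0.33) in Myh11-Cre.

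Sox9, the transcription factor that drives cartilage formation and cartilage-like change in vessels, was the least abundant per length. Its locus is on chromosome 11 (112782224 to 112787760, plus strand). Sox9 had 1.34, 2.54 and 2.62 CPM in Itga8-Cre aortae, 1.18, 3.06 and 3.59 in Myh11-Cre aortae, and 1.48, 3.01 and 1.74 in Wild Type aortae, and the groups overlapped. The log2 fold change was 0.06 (SE 0.47) in Itga8-Cre and 0.33 (SE 0.46) in Myh11-Cre against Wild Type. Cartilage markers differed between libraries as well, and not always with Sox9. Col2a1 had 17, 3 and 46 counts in Itga8-Cre, 12, 101 and 194 counts in Myh11-Cre, and 21, 7 and 7 counts in Wild Type, being low in Wild Type 2 and Itga8-Cre 2 where Sox9 was not. The summed level of the 10 tested cartilage markers, of 15 listed, ran from 17.5 to 33.5 CPM in Itga8-Cre, from 16.4 to 68.4 CPM in Myh11-Cre and from 19.7 to 24.6 CPM in Wild Type, and their part in the Sox9 levels was not tested.

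Separate groups were counted for all 10 genes. Against Wild Type, 2 of 10 were separate in Itga8-Cre (Lgals3 higher and Klf4 lower), where 11.1% of all genes were, and 1 of 10 was separate in Myh11-Cre (Lgals3 higher), where 26% were. Between Itga8-Cre and Myh11-Cre it was 0 of 10, against 12.7% of all genes. With 10 genes these shares are close to or below their backgrounds. They depend on single libraries: without Myh11-Cre 1, 4 of 10 were separate in Myh11-Cre against Wild Type, where 46.3% of all genes then were, and 5 of 10 between Itga8-Cre and Myh11-Cre, where 33% were. Myh11-Cre 1 was the lowest library for 6 of the 10 genes, and Myh11-Cre 2 the highest for 4. The median SD of log2 CPM over the 9 libraries was 0.57 for the 10 genes and 0.31 for all genes tested.

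Markers of other tissues moved with these library differences. Macrophage markers (15 of 15 tested, among them Adgre1, Cd68 and Csf1r) summed to 688 to 1314 CPM in Itga8-Cre libraries and 481 to 1246 CPM in Myh11-Cre libraries, against 460 to 639 CPM in Wild Type aortae. They were highest in Itga8-Cre 1, Itga8-Cre 2 and Myh11-Cre 2, the 3 libraries with high Spp1, where 12, 13 and 14 of the 15 lay above all Wild Type libraries. In Itga8-Cre 3, Myh11-Cre 1 and Myh11-Cre 3 it was 7, 2 and 9 of 15. No share of all genes is given for single libraries, so these counts are descriptions only. In edgeR 5 of the 15 (Lyz2, Cd68, Mpeg1, C1qb and Itgam, the last named after its values were seen) had an unadjusted p under 0.05 as higher in Itga8-Cre, against 3.97% of all genes. In Myh11-Cre it was 0 of 15, against 6.93%. Their median log2 fold changes were 0.58 in Itga8-Cre and 0.36 in Myh11-Cre. Their part in the Spp1 and Lgals3 levels was not tested.

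Mesothelial markers, all 11 tested, had a summed level that was higher in every Cre library than in every Wild Type library, which did not hold for each marker alone. They summed to 140 to 207 CPM in Itga8-Cre and to 185 to 391 CPM in Myh11-Cre, against 68.4 to 127 CPM in Wild Type aortae. At an unadjusted p under 0.05 in edgeR, 3 were higher in Itga8-Cre, against 3.97% of all genes, and 9 in Myh11-Cre, against 6.93%. Their median log2 fold changes were 0.95 in Itga8-Cre and 1.57 in Myh11-Cre. DESeq2 called 6 of the 11 as higher in Myh11-Cre, against 1.35% of all genes. Msln, mesothelin, had 13.1, 12.5 and 21.5 CPM in Itga8-Cre aortae, 19.6, 42.9 and 35.1 in Myh11-Cre aortae, and 9.59, 5.24 and 5.15 in Wild Type aortae. Their part in the Lgals3 level was not tested.

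Contractile smooth muscle genes were present in all libraries, with Acta2 at 171 CPM or more and Myh11 at 460 CPM or more. The 20 contractile genes summed to 2524 to 3849 CPM in Itga8-Cre aortae, 2337 to 7354 in Myh11-Cre aortae and 3580 to 5313 in Wild Type aortae. Their median log2 fold change was -0.52 in Itga8-Cre and 0.04 in Myh11-Cre against Wild Type. Skeletal muscle markers, all 14 tested, summed to 175 to 7804 CPM in Itga8-Cre aortae, 97.1 to 17801 in Myh11-Cre aortae and 959 to 2026 in Wild Type aortae, with the lowest values in Itga8-Cre 1 and Myh11-Cre 1. Fibroblast markers, all 12 tested, summed to 1743 to 2592 CPM in Itga8-Cre aortae, 1739 to 3591 in Myh11-Cre aortae and 2069 to 2510 in Wild Type aortae. Brown fat markers, 9 of 10 tested, summed to 2505 to 7947 CPM in Itga8-Cre, 3685 to 7464 in Myh11-Cre and 3173 to 4160 in Wild Type aortae. They were highest in Itga8-Cre 1 and Myh11-Cre 1. Thymus and lymphocyte markers, all 14 tested, summed to 186 to 1233 CPM in Itga8-Cre, 273 to 752 in Myh11-Cre and 264 to 393 in Wild Type aortae. Whether these differences set the levels of the 10 genes was not tested.

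**Figure D3:**
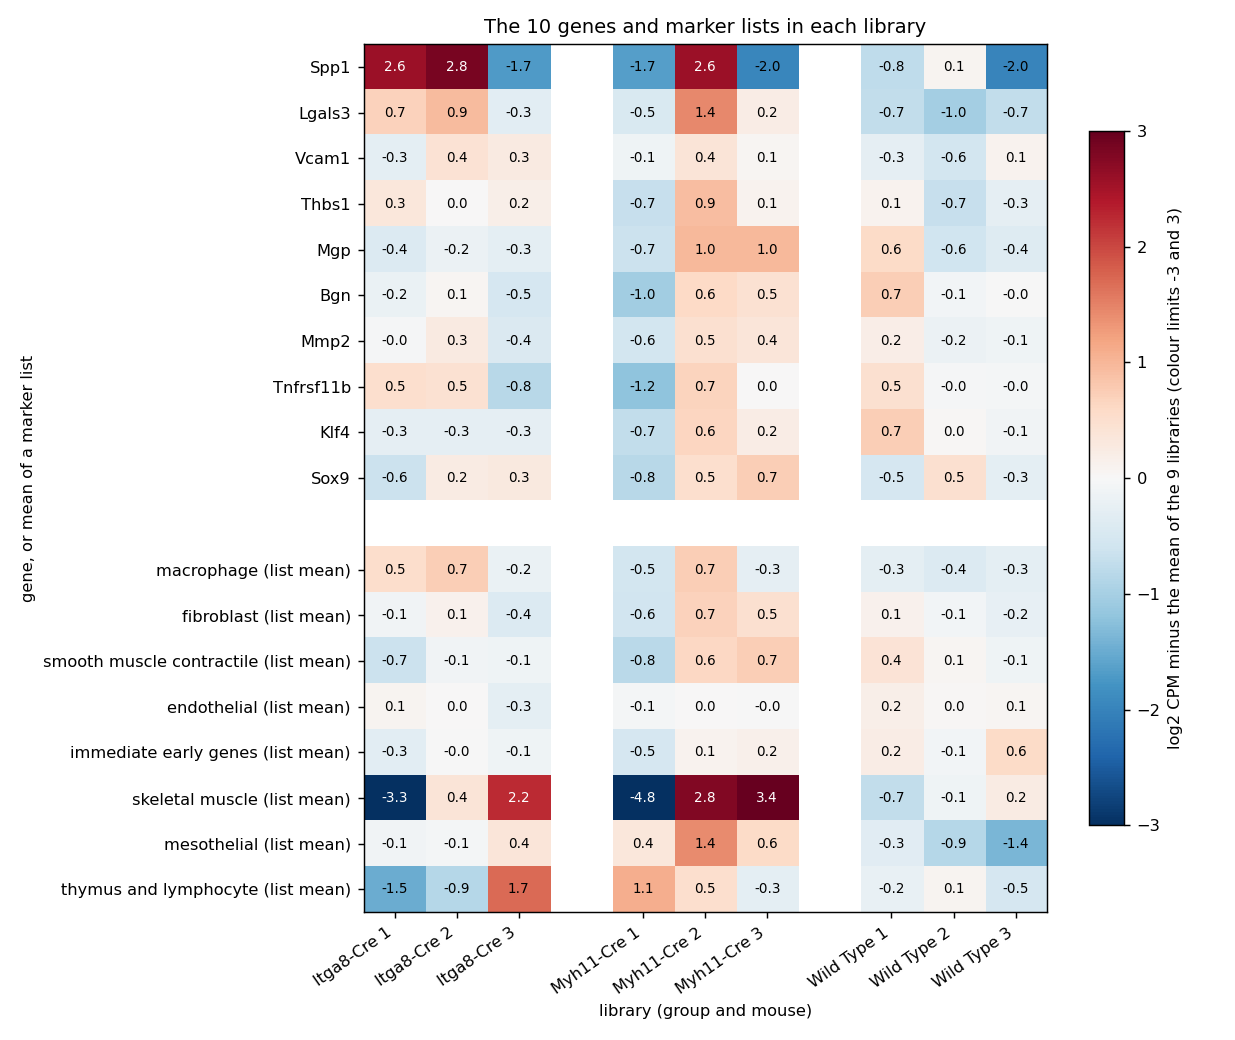
Log2 CPM minus the mean of the 9 libraries for each of the 10 genes and for the mean of each marker list (rows) in each library (columns); red is above and blue below the mean, with colours limited to -3 and 3. Spp1, Lgals3 and the macrophage list are above their means together in Itga8-Cre 1, Itga8-Cre 2 and Myh11-Cre 2, and Myh11-Cre 1 is below the mean for all 10 genes.

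Because contractile RNA also differed between libraries, each gene was set against the mean log2 CPM of 5 contractile genes (Acta2, Tagln, Myh11, Cnn1 and Myl9) of the same library. That mean was 6.95, 7.42 and 7.48 in Itga8-Cre, 6.68, 8.38 and 8.42 in Myh11-Cre, and 8.76, 7.55 and 7.70 in Wild Type. On this ratio Mgp was steady within groups: it was -0.72, -0.94 and -1.12 on the log2 scale in Itga8-Cre, -0.69, -0.78 and -0.81 in Myh11-Cre, and -1.53, -1.51 and -1.43 in Wild Type. Every Cre library lay above every Wild Type library, by 0.57 on average in Itga8-Cre and 0.74 in Myh11-Cre. Of all genes, 36.5% were separate and higher on this ratio in Itga8-Cre and 4.28% in Myh11-Cre. In level, the Mgp log2 fold change in Itga8-Cre was -0.25. For the Mgp ratio the exact two-sided permutation p was 0.1 in each Cre line, the smallest that 3 against 3 libraries can give. It was 0.5 after Benjamini-Hochberg adjustment over the 30 ratio tests.

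Lgals3 was also separate on this ratio. It was -2.10, -2.32 and -3.65 in Itga8-Cre, -2.99, -2.80 and -4.06 in Myh11-Cre, and -5.36, -4.42 and -4.28 in Wild Type, with mean differences of 2.00 and 1.40. In Itga8-Cre against Wild Type, Thbs1 (by 1.19) and Vcam1 (by 1.10) were separate as well, each with an exact permutation p of 0.1. That makes 4 of 10 genes higher in Itga8-Cre, where 36.5% of all genes were separate and higher on this ratio and 0.0361% separate and lower, so the count is near that of any gene set against contractile RNA. In Myh11-Cre it was 2 of 10 genes, where 4.28% of all genes were separate and higher. Between Itga8-Cre and Myh11-Cre 0 of 10 were separate, against 2.96% of all genes. With Acta2 alone in place of the 5 genes the same counts were 4, 2 and 0, where 32.4%, 4.1% and 2.62% of all genes were separate.

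**Figure D4:**
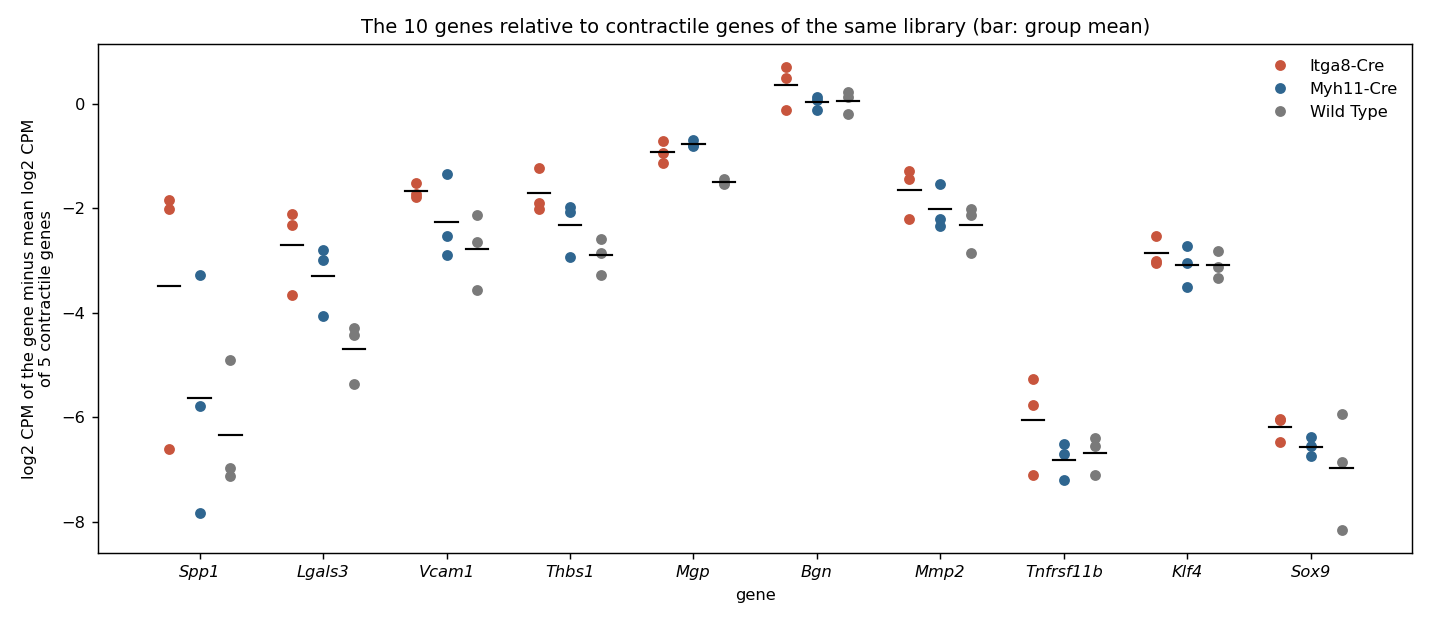
Log2 CPM of each of the 10 genes minus the mean log2 CPM of 5 contractile genes in the same library; each point is 1 library, coloured by group, and the bar is the group mean. For Mgp the 3 Wild Type libraries sit between -1.53 and -1.43, below all 6 Cre libraries, and the Lgals3 points of both Cre lines lie above those of Wild Type. Of all genes, 36.5% were separate and higher on this ratio in Itga8-Cre and 4.28% in Myh11-Cre.

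Denominators made of markers of other cells were chosen after seeing the data. Against the mean of the macrophage markers, Lgals3 stayed separate and higher than Wild Type, by 0.59 in Itga8-Cre and 0.92 in Myh11-Cre on the log2 scale (exact permutation p of 0.1 each). Of all genes, 0.185% were separate and higher on that ratio in Itga8-Cre and 2.36% in Myh11-Cre. The markers in that mean did not move alike. In Itga8-Cre against Wild Type the log2 fold change was 1.34 for Lyz2, 1.05 for Cd68 and 0.45 for Csf1r. In Myh11-Cre these were 0.84, 0.76 and 0.36. Whether Lgals3 differed from single macrophage genes was not tested. Bgn, Mmp2, Tnfrsf11b and Klf4 were separate and lower than Wild Type in Itga8-Cre on the macrophage ratio, as were 44% of all genes. Against the mean of the fibroblast markers, Lgals3 was separate and higher by 1.33 in Itga8-Cre and 0.96 in Myh11-Cre, where 3.58% and 3.25% of all genes were. Bgn was separate and lower on the fibroblast ratio, with mean differences of -0.37 in Itga8-Cre and -0.47 in Myh11-Cre. Tnfrsf11b (-0.57) and Klf4 (-0.45) were also separate and lower in Myh11-Cre. On that ratio 2.51% of all genes were separate and lower in Itga8-Cre and 4.61% in Myh11-Cre. Mgp was separate on neither of these ratios.

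Mmp2 followed the fibroblast markers most closely. The SD of its log2 ratio to their mean over the 9 libraries was 0.12, where the SD of its own log2 level was 0.36. Bgn, Klf4 and Mgp varied less against contractile genes (SD of the ratio 0.29, 0.30 and 0.35) than in level (0.56, 0.48 and 0.66), and about as much less against fibroblast markers (0.29, 0.30 and 0.36). The other genes varied as much or more against contractile genes than in level, from Tnfrsf11b (0.65 against 0.64) to Vcam1 (0.73 against 0.34). Lgals3 varied less against macrophage markers (0.44) than in level (0.86), and Spp1 also (1.64 against 2.10). So did Thbs1 (0.37 against 0.50) and Tnfrsf11b (0.47 against 0.64), while the rest varied more. Lgals3 (0.69) and Spp1 (1.95) varied less against fibroblast markers than in level too. These are descriptions over 9 libraries that share depth and tissue makeup.

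Likeness between genes was measured as the SD of their log2 CPM ratio over the 9 libraries, a small SD meaning a steady ratio. Among the 45 pairs of the 10 genes, Bgn with Klf4 was the steadiest at 0.21, and Bgn with Mmp2 came next at 0.28. Pairs with Spp1 ran from 1.55, with Lgals3, to 2.15, with Mgp. Pairs without Spp1 ran up to 0.93, for Lgals3 with Klf4.

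**Figure D5:**
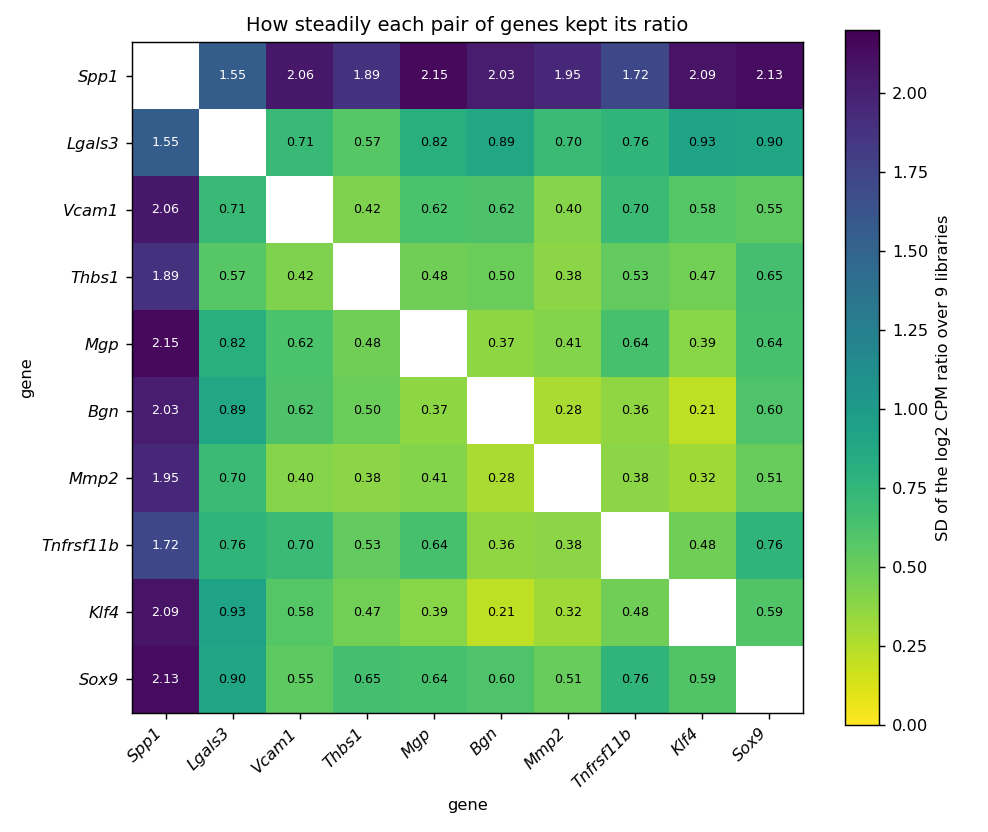
SD over the 9 libraries of the log2 CPM ratio of each pair of the 10 genes; yellow and small values are pairs whose ratio stayed steady. The row of Spp1 runs from 1.55 to 2.15, and Bgn with Klf4 is lowest at 0.21.

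Over 9637 genes with a mean CPM of at least 10, the gene with the steadiest ratio to Spp1 was Arg1, the arginase of the urea cycle that is also made by some macrophages (SD 0.59). Arg1 had 37.6, 36.2 and 1.33 CPM in Itga8-Cre aortae, 0.93, 20.4 and 0.39 in Myh11-Cre aortae, and 1.74, 6.37 and 0.755 in Wild Type aortae, high in the same 3 libraries as Spp1. Gpnmb, Trem2, Mmp12 and Saa3, chosen after their values were seen, were also highest in those 3 libraries. Mmp12, a macrophage elastase, had 54.4, 58.0 and 2.54 CPM in Itga8-Cre aortae, 0.77, 75.4 and 4.51 in Myh11-Cre aortae, and 5.50, 6.85 and 0.57 in Wild Type aortae.

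For Lgals3 the nearest gene was Lyz2, the lysozyme of macrophages and neutrophils (SD 0.31), and the next was Cd68 (SD 0.33), a lysosomal marker of macrophages. Lyz2 had 568, 705 and 315 CPM in Itga8-Cre aortae, 170, 626 and 326 in Myh11-Cre aortae, and 213, 161 and 253 in Wild Type aortae. Unlike Lgals3, Lyz2 had a Cre library, Myh11-Cre 1, within the Wild Type range. Cd68 had 16.1, 17.5 and 7.14 CPM in Itga8-Cre aortae and 7.99, 16.9 and 8.33 in Myh11-Cre aortae. With 6.98, 6.03 and 6.58 CPM in Wild Type aortae, it was higher in every Cre library, as Lgals3 was. The nearest gene was Sema3c for Mgp (SD 0.18), Fstl1 for Bgn (0.088), Mxra8 for Mmp2 (0.067) and Cd9 for Thbs1 (0.18). It was Rpl22l1 for Vcam1 (0.11) and Mmp17 for Klf4 (0.15). Sox9 and Tnfrsf11b were below the CPM limit for this measure.

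Related genes were taken from lists made by role, and their counts are to be read against all genes: at an unadjusted p under 0.05, edgeR had 3.97% of all genes higher and 2.81% lower in Itga8-Cre against Wild Type, and 6.93% higher and 9.48% lower in Myh11-Cre. Against Wild Type, the further modulated genes, partners, family members and regulators had 0 to 2 genes in each direction. Genes named from them are therefore given as values and not as results about the lists. Of 22 further modulated smooth muscle genes, all tested, 0 were higher and 1 lower at an unadjusted p under 0.05 in Itga8-Cre, and 2 were higher and 1 lower in Myh11-Cre. Their median log2 fold changes against Wild Type were 0.18 in Itga8-Cre and 0.33 in Myh11-Cre. The lower gene in both was Myh10, a heavy chain of non-muscle myosin, at 99.0, 115 and 90.2 CPM in Itga8-Cre aortae, 79.4, 109 and 118 in Myh11-Cre aortae, and 168, 168 and 154 in Wild Type aortae. DESeq2 called Myh10 in both, with adjusted p of 0.0311 in Itga8-Cre and 0.00970 in Myh11-Cre, and edgeR did not. DESeq2 called 0.144% of all genes as lower in Itga8-Cre and 3.09% in Myh11-Cre. The higher genes in Myh11-Cre were Ly6a (Sca1), with a log2 fold change of 0.47 (SE 0.17), and Igfbp2, with 1.70 (SE 0.73). Fn1, fibronectin, was highest in the 3 libraries with high Spp1. It had 1262, 1306 and 430 CPM in Itga8-Cre aortae, 251, 1417 and 667 in Myh11-Cre aortae, and 887, 405 and 498 in Wild Type aortae.

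Among 23 receptors, ligands and enzymes that act with the products of the 10 genes, 1 was higher and 2 lower in Itga8-Cre, and 1 higher and 0 lower in Myh11-Cre, at an unadjusted p under 0.05 in edgeR. Itga4, the integrin subunit that binds Vcam1 and osteopontin, had 67.3, 113 and 98.2 CPM in Itga8-Cre aortae, 63.4, 66.6 and 54.5 in Myh11-Cre aortae, and 67.1, 50.1 and 72.7 in Wild Type aortae. Against Wild Type its log2 fold change was 0.55 (SE 0.21) in Itga8-Cre (edgeR adjusted p of 0.699). The lower genes in Itga8-Cre were Sox6 (-0.41, SE 0.16), a partner of Sox9 in cartilage, and Bmp4 (-0.52, SE 0.22). Ggcx, the enzyme that carboxylates Mgp, was the higher gene in Myh11-Cre, with a log2 fold change of 0.35 (SE 0.14).

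Of 27 genes of the same families, 1 was higher in each Cre line and 0 lower at an unadjusted p under 0.05. In Itga8-Cre it was Tnfrsf1b, a TNF receptor, with a log2 fold change of 0.87 (SE 0.34). In Myh11-Cre it was Klf5, a relative of Klf4 that promotes smooth muscle growth, with a CPM of 14.9 in Myh11-Cre 2, 9.82 in Myh11-Cre 3 and 1.70 in Myh11-Cre 1, against 2.14, 2.09 and 2.58 CPM in Wild Type. Klf5 is on the list of regulators too.

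The regulators of modulation, 21 of 22 tested, had 2 higher and 0 lower genes in Itga8-Cre and 2 higher and 1 lower in Myh11-Cre at an unadjusted p under 0.05. Tgfb1, which promotes the contractile state, had 25.3, 34.1 and 28.6 CPM in Itga8-Cre aortae, 18.6, 22.8 and 23.3 in Myh11-Cre aortae, and 22.5, 21.2 and 23.6 in Wild Type aortae. Its log2 fold change was 0.39 (SE 0.13) in Itga8-Cre against Wild Type, and all 3 Itga8-Cre libraries lay above the others. The other higher gene in Itga8-Cre was Nfkb1, named after its values were seen, with 0.27 (SE 0.11). In Myh11-Cre, Tet2, an enzyme of DNA demethylation that favours contractile genes, had a log2 fold change of -0.33 (SE 0.11), and Tead1, a partner of Yap1, one of 0.46 (SE 0.16). Between the Cre lines, 3 of the 21 were higher and 2 lower in Itga8-Cre at an unadjusted p under 0.05 in edgeR. Of all genes, 9.48% reached that in either direction.

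Genes of bone formation and calcification, where Spp1, Mgp and Tnfrsf11b also act, had 0 higher and 1 lower of 13 tested (of 19 listed) in Itga8-Cre, and 3 higher and 1 lower in Myh11-Cre at an unadjusted p under 0.05, where 6.93% of all genes were higher and 9.48% lower. The 3 higher genes in Myh11-Cre were Col10a1, a collagen of growth cartilage, Slc20a2, a phosphate transporter, and Ank, a pyrophosphate exporter. Col10a1 had 2.63, 0.36 and 2.83 CPM in Itga8-Cre aortae, 1.12, 2.24 and 10.9 in Myh11-Cre aortae, and 0.29, 0.529 and 0.442 in Wild Type aortae. DESeq2 called Col10a1 in Myh11-Cre with an adjusted p of 0.00557, where it called 1.35% of all genes as higher. The lower gene in Myh11-Cre was Runx2, the master regulator of bone formation, named after its values were seen, with a log2 fold change of -0.84 (SE 0.36). Sp7, Bglap, Ibsp, Msx2, Dlx5 and Dmp1 were below the filter.

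Immediate early genes are rapidly induced by growth factors and stress, as Klf4 can be. Of 19 tested, 1 was higher and 7 lower in Itga8-Cre, against 3.97% higher and 2.81% lower of all genes at an unadjusted p under 0.05. In Myh11-Cre 0 were higher and 5 lower, against 6.93% higher and 9.48% lower of all genes. Egr1 had 14.2, 17.1 and 14.4 CPM in Itga8-Cre aortae, 11.4, 18.5 and 14.6 in Myh11-Cre aortae, and 31.8, 18.2 and 39.9 in Wild Type aortae, and DESeq2 called it in Myh11-Cre with an adjusted p of 0.0300, where it called 3.09% of all genes as lower. Ccn1, a matricellular protein, ran from 15.8 to 26.9 CPM in Itga8-Cre and from 20.1 to 38.2 CPM in Myh11-Cre, against 37.8 to 64.2 CPM in Wild Type aortae. Klf4 too was lower in every Itga8-Cre library than in Wild Type, and the part of this response in its level was not tested.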

How the data were processed

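RNA from flash-frozen whole aortae was made into libraries with a stranded, poly(A)-selecting kit and read as single 75 nt reads, per the labels' protocols. The authors deposited whole-number counts per gene, which were used as deposited, with no sample pooled. The submitters' processing notes name STAR 2.7.0f, featureCounts in Subread 1.6.4 and the build GRCm38.p6. The strand setting of the counting step is not given here, and Spp1, Vcam1 and Thbs1, which overlap other gene models, may share reads with them. A deposited table of normalized values was not used.

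Symbols were placed with GENCODE M21, whose union of exons gave the length for RPKM. In R 4.3.3, edgeR 4.0.16 (filterByExpr, TMM, robust quasi-likelihood fit of group means to 9 libraries, threshold 0.05) was the main test, with DESeq2 1.42.0 and limma voom 3.58.1 beside it. The common biological coefficient of variation was 0.294. Log2 CPM used a prior count of 2. Ratios were tested by exact permutation (two-sided). Steps were tested on simulated data. The members and lists were chosen with earlier results of these data known. Genes were named when they were members, among the 4 smallest p-values or 3 highest levels of a list, or nearest to a member, and any other is marked as named after its values were seen. The labels number the mice within each group, and the smallest chi-square per degree of freedom between any 2 libraries was 30.8, so no pair agreed within sampling noise.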

Additional observations from a re-analysis of the deposited data

How the results depend on the processing

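With 3 mice per group, the spread between mice limits the precision, and Sox9 and Tnfrsf11b also rest on few counts. Over 510 alternative values of the 10 genes' log2 fold changes, 455 kept direction and side of the threshold, 54 changed sign and 1 passed it (Lgals3 in Myh11-Cre under DESeq2, the only one of the 10 genes called under any setting). Of 816 list medians, 27 moved by more than the set margin. The cause of these changes was not tested, other than that fewer libraries were fitted where some were left out. DESeq2 called 30 genes for Itga8-Cre against Wild Type, 828 for Myh11-Cre against Wild Type, 1 of them among the 10, and 19 between the Cre lines. For Myh11-Cre against Wild Type edgeR called 1 gene in the unfiltered table, 1 with the replicate block and 265 without Itga8-Cre 1 and Myh11-Cre 1. It called 1 when the libraries highest in skeletal muscle RNA (Itga8-Cre 3, Myh11-Cre 2, Myh11-Cre 3) were left out, and also 1 between the Cre lines, the lone Myh11-Cre library being taken to vary like the rest.

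All 9 same-numbered pairs of libraries had a positive correlation of deviations (0.03 to 0.40), 5 of them over 0.1. Pairs with other numbers ran from -0.35 to 0.24. In both other groups, 5 of 9 libraries correlated best with their own number. Whether mouse number stands for a shared batch or handling was not tested. The block with mouse number called 0 genes for Itga8-Cre against Wild Type and between the Cre lines.

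When each library was left out, edgeR called 0 genes. Fewer libraries make separate groups easier to reach. Separate genes in level then numbered 2 to 4 for Itga8-Cre against Wild Type (4 without Itga8-Cre 2, where 26.4% of all genes were separate), 1 to 4 for Myh11-Cre against Wild Type (4 without Myh11-Cre 1, with 46.3% of all genes, 2 without Wild Type 3, with 33%) and 0 to 5 between the Cre lines (5 without Myh11-Cre 1, with 33%, 1 without Itga8-Cre 3, with 24.5%). In the contractile ratio they numbered 4 to 8 (8 without Itga8-Cre 3, with 54% of all genes, 7 without Wild Type 2, with 58.7%), 2 to 3 (5.27% to 17.3% of all genes), and 0 to 5 (5 without Itga8-Cre 3, with 13.3%, 3 without Myh11-Cre 1, with 85.6%, 2 without Itga8-Cre 1, with 4.31%, 1 without Itga8-Cre 2, with 4.23%). With fibroblast markers as denominator the ratio counts were 2 in Itga8-Cre (6.09% of all genes) and 4 in Myh11-Cre (7.86%), and with macrophage markers 1 in Myh11-Cre (12.6%).

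For Itga8-Cre against Wild Type, Tnfrsf11b, at 0.01, was -0.020 with RLE factors, -0.023 with DESeq2, -0.017 in 6 libraries, -0.073 with voom, -0.064 with mouse number as a block and -0.22 without Itga8-Cre 1 and Myh11-Cre 1. Without the 3 libraries high in skeletal muscle RNA, Mmp2 was 0.14 and Sox9 -0.11. For Myh11-Cre against Wild Type, leaving out Itga8-Cre 1 and Myh11-Cre 1 gave Bgn 0.27, Tnfrsf11b 0.24 and Klf4 0.18, and leaving out those 3 gave Spp1 -1.02, Mgp -0.61, Thbs1 -0.42, Mmp2 -0.53 and Sox9 -0.82. For Itga8-Cre against Myh11-Cre, voom gave Thbs1 0.071 and Lgals3 0.040, the first of these exclusions gave Tnfrsf11b -0.46, and the other gave Mgp 0.35, Bgn 0.96, Thbs1 0.86, Mmp2 0.66, Lgals3 1.28, Klf4 0.45 and Sox9 0.71.

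Leaving out 1 library at a time, signs changed for Itga8-Cre against Wild Type in Mgp (-0.47 to 0.19), Mmp2 (-0.21 to 0.14), Tnfrsf11b (-0.20 to 0.33) and Sox9 (-0.15 to 0.42). For Myh11-Cre against Wild Type they changed in Spp1 (-1.17 to 2.40), Bgn (-0.36 to 0.27), Tnfrsf11b (-0.63 to 0.24) and Klf4 (-0.45 to 0.19). Between the Cre lines they changed in Thbs1 (-0.38 to 0.42), Tnfrsf11b (-0.23 to 0.63), Vcam1 (-0.10 to 0.24), Lgals3 (-0.41 to 0.61) and Sox9 (-0.62 to 0.030).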

Other observations

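Nerve and glia markers, all 12 tested, were more often lower than higher. At an unadjusted p under 0.05 in edgeR, 0 were higher and 7 lower in Myh11-Cre than in Wild Type, where 9.48% of all genes were lower. In Itga8-Cre 0 were higher and 0 lower, where 2.81% of all genes were lower. The median log2 fold change was -0.48 in Myh11-Cre and -0.26 in Itga8-Cre. DESeq2 called 5 of the 12 as lower in Myh11-Cre, against 3.09% of all genes. The neurofilament gene Nefm had a log2 fold change of -2.38 (SE 0.56) in Myh11-Cre, and Th, the enzyme of catecholamine synthesis in sympathetic nerve, one of -1.97 (SE 0.53). Their summed level ran from 254 to 373 CPM in Myh11-Cre and from 354 to 460 CPM in Itga8-Cre, against 379 to 644 CPM in Wild Type.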
